A study of Mus musculus with 22 samples.

Results

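The expression of genes in kidneys of mice without Clock was compared between midday, the rest phase of a nocturnal animal, and midnight, its active phase. Of the 22 arrays of the study, 7 enter this comparison: 4 arrays of Clock knockout kidney at ZT4 and ZT8 (midday) and 3 at ZT16 and ZT20 (midnight), chosen by their titles. ZT is zeitgeber time in hours, counted from lights on in the earlier cycle, so that lights off falls at ZT12. The knockout animals are clock(-/-) mice of a colony bred from heterozygous founders, so the loss is present in the whole body and from conception, and effects that begin outside the kidney are part of what was measured. The wild-type arrays of the same windows, 3 at midday and 4 at midnight, are used to show where the knockout differs. All 22 arrays also enter the estimate of spread and the filter on dim probe sets. Both genotypes lived for 2 weeks in cycles of 12 h of light and 12 h of dark and then spent 30 h in constant darkness before sacrifice, so no light-dark cycle was present on the day of sampling. For each array, RNA from 2 or 3 mice was combined, and 100 ng of it was hybridised to an Affymetrix whole-transcript array. The labels give the source as whole kidney and the tissue as left kidney, and the age and sex of the mice were not found in the sources used. There were 2 pools at ZT4, ZT8 and ZT20 and 1 at ZT16 in the knockout. Nothing states that the pools came from separate litters or days, so the differences between them may be partly technical. The p-values rest on the spread of arrays within a genotype and window. At midday and midnight this spread also holds changes from ZT4 to ZT8 and from ZT16 to ZT20.

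In the mammalian clock, Clock and Arntl (Bmal1) form a dimer that binds E-box sequences and switches on the Per and Cry genes, whose proteins then repress the dimer. A further loop runs through Nr1d1 and Nr1d2 (Rev-erb alpha and beta), which repress Arntl, against the Ror factors, which activate it, and another sets the PAR bZIP activators Dbp, Tef and Hlf against the repressor Nfil3. In many tissues Npas2, a close relative of Clock, can pair with Arntl in its absence, and body temperature, feeding and hormones reach the kidney as further daily signals. In the kidney, daily rhythms are known for the filtration rate and the excretion of sodium, potassium and water. The endoplasmic reticulum chaperones, which fold secreted and membrane proteins, are induced together in the unfolded protein response.

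Values are log2 expression as deposited, and a difference is the mean of the midday arrays minus the mean of the midnight arrays, so that a positive value means higher at midday. A difference of 1 log2 is a 2-fold change. Each ± gives the standard error of the fit, which used all 22 arrays, and adjusted p-values are those of limma with the Benjamini-Hochberg correction over 13967 genes. A gene is called here at an adjusted p under 0.05. Array medians of the 7 arrays lay between 5.88 and 5.94 log2, and correlations between any pair of them over all probe sets between 0.991 and 0.994. Defining kidney genes were bright in every one of the 7 arrays, with Slc34a1 of the proximal tubule at 13.13 to 13.19 log2 and Umod of the thick ascending limb at 12.95 to 13.06 log2. The liver gene Alb lay at 5.19 to 6.67 log2, with a mean at the 24.2 percentile of the genes tested. The Clock probe set had 8.85 and 8.97 log2 at ZT4, 8.98 and 8.73 at ZT8, 9.10 at ZT16, and 8.96 and 9.11 at ZT20. The wild-type midday and midnight arrays had 8.49 to 9.06 log2. Nothing states where the probes of this set lie relative to the deleted part of the gene, so its level does not check the deletion.

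Some of the 7 arrays stood apart. On the first principal component of the 11 knockout arrays, which held 30.5% of their variance, the ZT20 pools lay at -13.0 and -17.7, while the ZT16 pool lay at -1.58 and the 4 midday arrays between 3.93 and 10.5. The ZT20 pools therefore form an end of the spread that the ZT16 pool does not share. The ZT8 pool 2 array had 10.62 log2 of Ugt2b38, a glucuronosyltransferase and the gene with the largest knockout minus wild-type difference over all arrays. The other 6 arrays had 6.50 to 8.20 log2 of it, and the 11 wild-type arrays 10.51 to 12.36 log2. Slc7a12, an amino acid transporter, also had a large mean difference between the genotypes. In it the ZT8 pool 2 array had 10.61 log2 and lay among the knockout arrays (10.32 to 10.98). The wild-type arrays had 6.93 to 10.49 log2, and the highest, ZT4 pool 2, also lay in the knockout range. In Nat8f5, another such gene, the ZT8 pool 2 array had 7.91 log2, against 4.49 to 7.31 log2 in the other 6 arrays. That is within the wild-type range (7.36 to 10.26 log2), as were the knockout ZT12 pools (7.96 and 9.19 log2). In Nat8f5 and Ugt2b38 the low end of the wild-type range was wild-type ZT4 pool 2 alone. The other wild-type arrays had at least 8.03 and 11.71 log2, above the knockout ZT8 pool 2 array in both genes. In Nat8f5 they also lay above knockout ZT12 pool 1. These genes were picked after their values were seen. The knockout ZT8 pool 2 array is kept under its label, and results that rest on it or on the ZT20 pools are given with and without them.

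In kidneys without Clock, 208 of the 13967 genes tested (1.49%) differed between midday and midnight. Of these, 152 (1.09%) were higher and 56 (0.401%) were lower at midday, and 85 had a difference of at least 0.5 log2. At an unadjusted p under 0.05 there were 1912 genes (13.7%). Among the 208, the 4 midday arrays did not overlap the 3 midnight arrays in 205, against 14.3% of all genes in either direction (8.2% higher and 6.14% lower). The same arrays chose these genes, so this separation follows largely from the call. With the 7 arrays alone in the fit, 108 genes (0.773%) were called. With only pool 1 arrays no gene was called (0%), while 1193 had an unadjusted p under 0.05 in limma, and with only pool 2 arrays 83 (0.594%) were. When each array's median was subtracted, 219 genes were called, of which 190 were higher and 29 lower, so the share of lower genes depends on the scaling. Without the ZT20 pools, and the ZT16 pool alone as midnight, 7 genes (0.0501%) were called. All of the 208 genes had the same sign there, 177 of them with at least 0.5 times the size, and their median size was 0.37 log2, against 0.45 log2 with all 7 arrays. The ZT16 pool took part in choosing these genes, so the shared sign is a description. Of the 208 genes, 17 kept their call whichever of the 7 arrays was left out. The count was 20 without ZT20 pool 2, 39 without ZT8 pool 2, 68 without ZT8 pool 1, 90 without ZT20 pool 1, 114 and 115 without either ZT4 pool, and 271 without the ZT16 pool. Most single genes named below therefore lose their call without some array, and the 17 that do not are described further on.

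Among 35 gene lists, the endoplasmic reticulum chaperones had the most members lower at midday. Among 16 members tested, 9 fell (background 0.401% lower) and none rose, and the median difference was -0.39 log2, against -0.00307 log2 over all genes. The promoters of 4 of those that fell are shown first, because they hold a known control sequence of the unfolded protein response. They are RefSeq sequences on GRCm38.p6, each 300 bases long around the annotated start and written 5′ to 3′ on the strand of the gene. Capitals mark the endoplasmic reticulum stress element, CCAAT followed after 9 bases of any kind by CCACG, searched on both strands.
Hspa5 (chr2:34771840-34772139, plus strand): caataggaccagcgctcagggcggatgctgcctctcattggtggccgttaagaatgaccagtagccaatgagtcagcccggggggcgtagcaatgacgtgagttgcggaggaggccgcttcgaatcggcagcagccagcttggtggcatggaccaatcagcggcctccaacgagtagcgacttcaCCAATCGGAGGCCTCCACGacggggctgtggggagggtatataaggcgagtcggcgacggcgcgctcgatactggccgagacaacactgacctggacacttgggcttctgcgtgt
Hsp90b1 (chr10:86705395-86705694, minus strand): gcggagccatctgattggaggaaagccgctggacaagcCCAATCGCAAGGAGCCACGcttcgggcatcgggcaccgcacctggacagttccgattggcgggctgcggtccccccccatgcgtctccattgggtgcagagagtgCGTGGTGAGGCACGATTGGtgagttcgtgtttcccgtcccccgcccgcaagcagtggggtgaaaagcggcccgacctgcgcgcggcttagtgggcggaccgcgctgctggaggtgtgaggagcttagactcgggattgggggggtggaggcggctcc
Pdia6 (chr12:17266339-17266638, plus strand): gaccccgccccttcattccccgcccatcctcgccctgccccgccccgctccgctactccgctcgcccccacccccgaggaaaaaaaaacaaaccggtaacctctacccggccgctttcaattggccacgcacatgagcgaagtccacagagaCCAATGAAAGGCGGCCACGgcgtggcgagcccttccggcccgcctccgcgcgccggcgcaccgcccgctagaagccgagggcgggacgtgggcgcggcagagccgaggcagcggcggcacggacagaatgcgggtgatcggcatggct
Calr (chr8:84846882-84847181, minus strand): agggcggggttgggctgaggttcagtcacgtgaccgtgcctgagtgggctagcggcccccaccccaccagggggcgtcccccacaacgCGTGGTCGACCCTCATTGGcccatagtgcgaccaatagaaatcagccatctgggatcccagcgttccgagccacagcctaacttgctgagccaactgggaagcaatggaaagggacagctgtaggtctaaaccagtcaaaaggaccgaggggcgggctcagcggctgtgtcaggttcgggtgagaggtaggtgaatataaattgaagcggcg
Of the 16 members, 14 had a promoter in the RefSeq table, and 7 of these held the element. It was present in 17 of 11078 tested genes with a promoter (0.154%). It was in 4 of 8 members that were called and in 3 of 6 that were not (Canx, Creld2 and Dnajc3). The called Sdf2l1, Dnajb11, Pdia4 and Pdia3 did not hold it. The element is a known control sequence of the response that induces these chaperones, so its share among them is no result of the comparison. A match of letters is a description and does not show binding.

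Sdf2l1, a stress-induced partner of the chaperone Hspa5, had 7.56, 7.27, 7.29 and 6.86 log2 in the midday arrays, against 8.32, 8.18 and 8.10 log2 at midnight. All 4 midday arrays lay below all midnight arrays, and ZT8 pool 2 was the lowest. Sdf2l1 fell by 0.95 ± 0.14 log2 (adjusted p = 0.00443). Hyou1, a large chaperone and exchange factor, had 9.31, 9.21, 9.21 and 9.27 log2 at midday, against 10.24 log2 at ZT16 and 9.64 and 9.72 log2 at ZT20. Its midday arrays were tightly grouped, and the ZT16 pool was the highest of the 7. Hyou1 fell by 0.61 ± 0.11 log2 (adjusted p = 0.0084). Hspa5 (BiP), the main chaperone of the organelle, which also holds its stress sensors inactive, had 11.30, 11.31, 11.39 and 11.37 log2 at midday, against 12.16 log2 at ZT16 and 11.58 and 11.65 log2 at ZT20. As in Hyou1, the ZT16 pool was the highest array. Hspa5 fell by 0.45 ± 0.11 log2 (adjusted p = 0.0453). It lies outside the limit of 6 named members per list and was picked after its values were seen, as were Pdia4 and Pdia3.

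Hsp90b1 (Grp94) had 11.60, 11.49, 11.49 and 11.46 log2 at midday, against 12.10, 12.01 and 11.95 log2 at midnight, and fell by 0.51 ± 0.08 log2 (adjusted p = 0.00491). Dnajb11, a co-chaperone of Hspa5, had 9.30, 9.43, 9.33 and 9.32 log2 at midday, against 9.87, 9.88 and 9.79 log2 at midnight. In both genes the ZT16 and ZT20 pools were close to each other, and the windows did not overlap. Dnajb11 fell by 0.50 ± 0.08 log2 (adjusted p = 0.00443). Pdia6, a disulfide isomerase, fell by 0.53 ± 0.08 log2, with 10.34 to 10.56 log2 at midday and 10.96 to 11.06 log2 at midnight. Calr (calreticulin), a lectin chaperone that binds calcium, fell by 0.48 ± 0.08 log2, with 11.06 to 11.25 log2 at midday and 11.54 to 11.75 log2 at midnight. The adjusted p was 0.00491 for each. The isomerases Pdia4 and Pdia3 fell by 0.41 ± 0.08 and 0.36 ± 0.09 log2 (adjusted p = 0.0152 and 0.047). Of the 7 members that did not pass, Creld2, Manf, Dnajc3, Canx and Xbp1 had negative differences, and Dnajb9 and Herpud1 had differences of 0.21 and 0.37 log2.

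**Figure D1:**
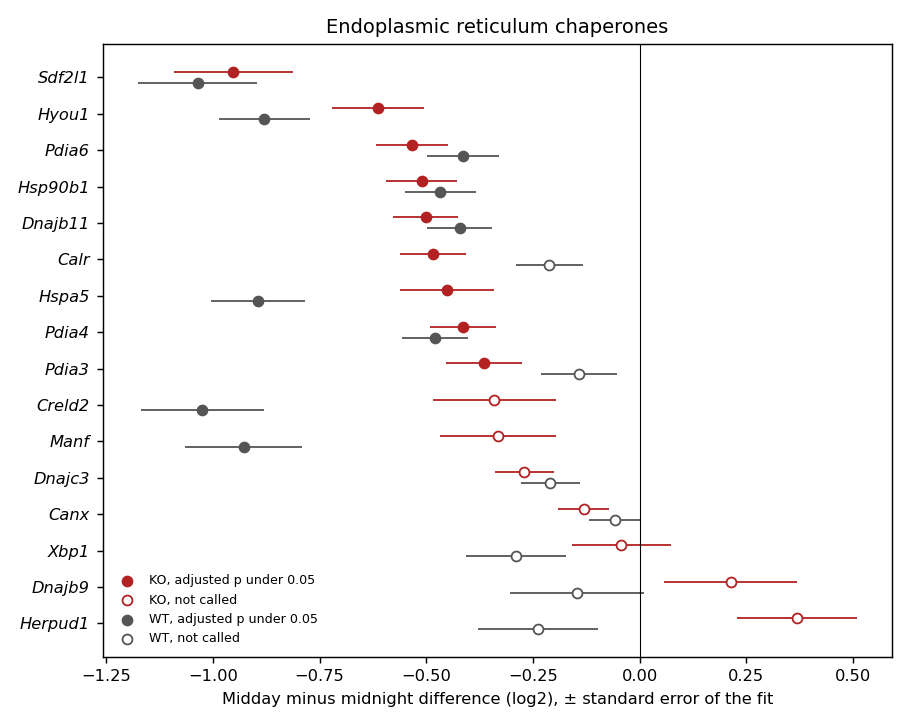
Midday minus midnight difference in log2 for the 16 endoplasmic reticulum chaperones, in Clock knockout and wild-type kidney. Points are the fitted differences, bars are standard errors and filled points are genes called; in the knockout 9 members lie below 0 and are called, Sdf2l1 lowest at -0.95.

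The chaperone differences were also measured without the ZT20 pools. With the ZT16 pool alone as midnight, Hyou1 differed by -0.99 log2 (adjusted p = 0.000708) and Hspa5 by -0.81 log2 (adjusted p = 0.0224), and the median over the 16 members was -0.53 log2. The other 7 members called in the comparison of 7 arrays were not called there. Without ZT8 pool 2, 7 members were called. In wild-type kidney 9 members were also lower at midday (background 0.523% lower), with a median of -0.42 log2, and no member differed between the genotypes in the test of the difference. The mean level of the list in the knockout was 10.01 to 10.10 log2 at midday, and at midnight 10.59 log2 in the ZT16 pool and 10.27 and 10.30 log2 in the ZT20 pools. The cytosolic heat shock genes, which serve protein folding outside the organelle, had none of 14 members called by limma in the knockout and 4 at an unadjusted p under 0.05. Their median was -0.10 log2 in the knockout and -0.27 log2 in wild type, where 6 were lower at midday. Stip1, which links Hsp70 to Hsp90, was closest, with -0.32 ± 0.08 log2 (adjusted p = 0.063).

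Several clock genes still differed between midday and midnight without Clock. Nr1d1, a repressor of Arntl, had 8.76, 8.68, 8.08 and 8.94 log2 at midday, against 7.47, 7.58 and 7.40 log2 at midnight. Every midday array lay above every midnight array, with ZT8 pool 1 the lowest of the midday arrays. Nr1d1 rose by 1.13 ± 0.22 log2 (adjusted p = 0.0179). In wild type the difference was 2.52 log2, and the test of the difference between the genotypes gave -1.39 log2 (adjusted p = 0.241). Nr1d2, its close relative, had 8.70, 8.94, 8.71 and 9.41 log2 at midday, against 7.64, 7.75 and 7.56 log2 at midnight. The windows did not overlap, and the ZT8 pool 2 array was highest. Nr1d2 rose by 1.29 ± 0.27 log2 (adjusted p = 0.022), and its wild-type difference was 0.93 log2.

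Nfil3, the repressor that acts against the PAR bZIP factors, went the other way. It had 7.25, 7.10, 7.40 and 7.03 log2 at midday, against 7.99, 8.25 and 7.93 log2 at midnight. The windows did not overlap, and Nfil3 fell by 0.86 ± 0.19 log2 (adjusted p = 0.0294), with -1.15 log2 in wild type. Rhobtb1, a member of the clock output list, fell by 0.47 ± 0.11 log2 (adjusted p = 0.0455). It had 8.81 to 9.03 log2 at midday and 9.32 to 9.50 log2 at midnight. Rhobtb1 lost its call whichever of the 7 arrays was left out, with adjusted p from limma of 0.0668 to 0.18. Nr1d1, Nr1d2, Nfil3 and Rhobtb1 were the 4 called among 30 genes of the core clock, PAR bZIP and clock output lists (background 1.49% in either direction).

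Other clock genes did not pass the test. Arntl had 7.91, 7.61, 7.86 and 7.04 log2 at midday, against 8.69, 8.63 and 8.64 log2 at midnight. The windows did not overlap and the difference was -1.05 ± 0.35 log2, but the adjusted p was 0.168. Without ZT8 pool 2, the lowest of these arrays, it was -0.86 log2 (adjusted p = 0.393). Arntl was called when limma used the 7 knockout arrays alone (adjusted p = 0.0402) or all 11 knockout arrays alone (adjusted p = 0.0182). Per3 had 6.21 to 7.05 log2 at midday and 5.68 to 5.86 log2 at midnight, a difference of 0.80 ± 0.24 log2 (adjusted p = 0.0978). Dbp, an activator of outputs, had 7.64, 8.12, 8.04 and 9.69 log2 at midday, against 7.32, 7.20 and 7.40 log2 at midnight. Its difference of 1.07 ± 0.53 log2 (adjusted p = 0.387) rests in large part on the ZT8 pool 2 array, which was far above the others. With that array left out it differed by 0.63 log2 (adjusted p = 0.72). Ciart, another repressor of the dimer, was at 7.03 log2 in that array and at 5.20 to 5.32 log2 in the other midday arrays, against 4.88, 5.40 and 5.02 log2 at midnight. In Ugt2b38 the knockout ZT8 pool 2 array lay within the wild-type range only through wild-type ZT4 pool 2. In Dbp, Ciart and Arntl it lay within the range of the wild-type midday arrays. These had 7.99 to 10.83, 5.69 to 8.39 and 5.58 to 7.74 log2. The array was not alone there in Dbp, where knockout ZT4 pool 2 and ZT8 pool 1 (8.12 and 8.04 log2) also lay in that range. The same held for ZT4 pool 2 in Arntl (7.61 log2), whereas in Ciart no other knockout midday array did. Tef (0.62 ± 0.19 log2, adjusted p = 0.108) and Cry1 (-0.47 ± 0.13 log2, adjusted p = 0.0856) also fell short.

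Per1, Per2, Cry2, Bhlhe40, Bhlhe41, Hlf, Rora and Arntl2, the remaining core and PAR bZIP members beside Clock, had differences of 0.00 to 0.37 log2, and none was called. Per2, the light-responsive repressor, had 6.91, 7.14, 7.44 and 7.62 log2 at midday, against 7.49, 7.05 and 7.25 log2 at midnight. Its windows overlapped fully and it differed by 0.01 ± 0.24 log2, beside -1.05 log2 in wild type (adjusted p = 0.0259). The test of that difference between the genotypes gave 1.07 log2 (adjusted p = 0.39). Without the ZT8 pool 2 array no core clock repressor was called in the knockout. Nr1d1 then differed by 1.02 log2 (adjusted p = 0.0685), Nr1d2 by 1.14 log2 (adjusted p = 0.0824) and Nfil3 by -0.81 log2 (adjusted p = 0.0963). With the ZT20 pools left out the same genes differed by 1.14, 1.30 and -0.80 log2 (adjusted p = 0.378, 0.419 and 0.507).

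**Figure D2:**
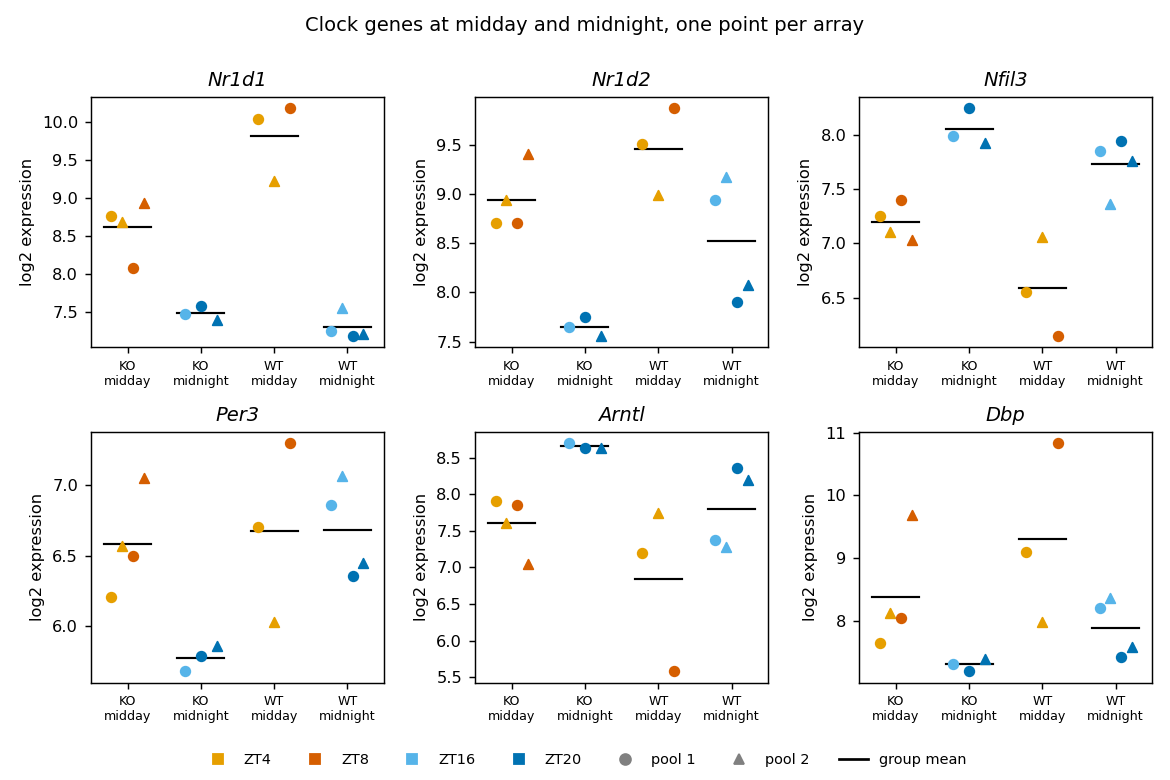
Log2 expression of 6 clock genes in each array, with knockout midday and midnight left of wild-type midday and midnight. Each point is a pool (circle pool 1, triangle pool 2), colour gives the ZT and the bar the mean; Nr1d1, Nr1d2 and Nfil3 do not overlap between the knockout windows, and a single ZT8 pool carries the high Dbp value of 9.69.

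Among the genes called, the 6 with the largest differences all had smaller ones without the ZT20 pools. Azgp1, a secreted glycoprotein related to class I histocompatibility molecules, had 9.31, 8.68, 9.01 and 9.67 log2 at midday, against 7.95 log2 at ZT16 and 5.89 and 5.48 log2 at ZT20. The ZT16 pool lay nearer to the midday arrays than to the ZT20 pools. Azgp1 rose by 2.73 ± 0.56 log2 (adjusted p = 0.0205). Slco1a1, an uptake carrier for organic anions and steroid conjugates, had 8.97, 9.29, 9.55 and 9.79 log2 at midday, against 8.96 log2 at ZT16 and 6.30 and 5.18 log2 at ZT20. Its ZT16 pool lay just below the lowest midday array, and Slco1a1 rose by 2.59 ± 0.61 log2 (adjusted p = 0.0377). Cyp2j13, a cytochrome P450 of the epoxygenase family, had 10.88, 10.83, 10.90 and 11.07 log2 at midday, against 10.45 log2 at ZT16 and 8.60 and 8.42 log2 at ZT20. Only the ZT20 pools were far from the rest, and Cyp2j13 rose by 1.76 ± 0.34 log2 (adjusted p = 0.0177).

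Pzp, a broad protease inhibitor of plasma, rose by 2.00 ± 0.43 log2 (adjusted p = 0.0237), with 8.22 to 8.85 log2 at midday, against 7.90 log2 at ZT16 and 5.53 and 5.98 log2 at ZT20. Ces1g, a carboxylesterase, rose by 1.91 ± 0.38 log2 (adjusted p = 0.0194), with 8.54 to 9.93 log2 at midday, against 8.43, 6.44 and 7.10 log2 at midnight. Ugt2b37, a glucuronosyltransferase, rose by 1.80 ± 0.41 log2 (adjusted p = 0.0329), with 9.65 to 10.13 log2 at midday, against 9.49, 7.70 and 6.99 log2 at midnight. All 3 share the order midday, ZT16, ZT20 from high to low. When the ZT20 pools were left out, Azgp1 differed by 1.21, Slco1a1 by 0.43, Cyp2j13 by 0.47, Pzp by 0.57, Ces1g by 0.81 and Ugt2b37 by 0.36 log2, and none was called. In wild type their differences were between -0.67 and 0.90 log2, and none was called. Cyp4a12a, a P450 of fatty acid hydroxylation picked after its values were seen, had a difference of 2.23 ± 0.60 log2, larger than 4 of these 6, and its windows did not overlap, but it was not called (adjusted p = 0.0682).

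**Figure D3:**
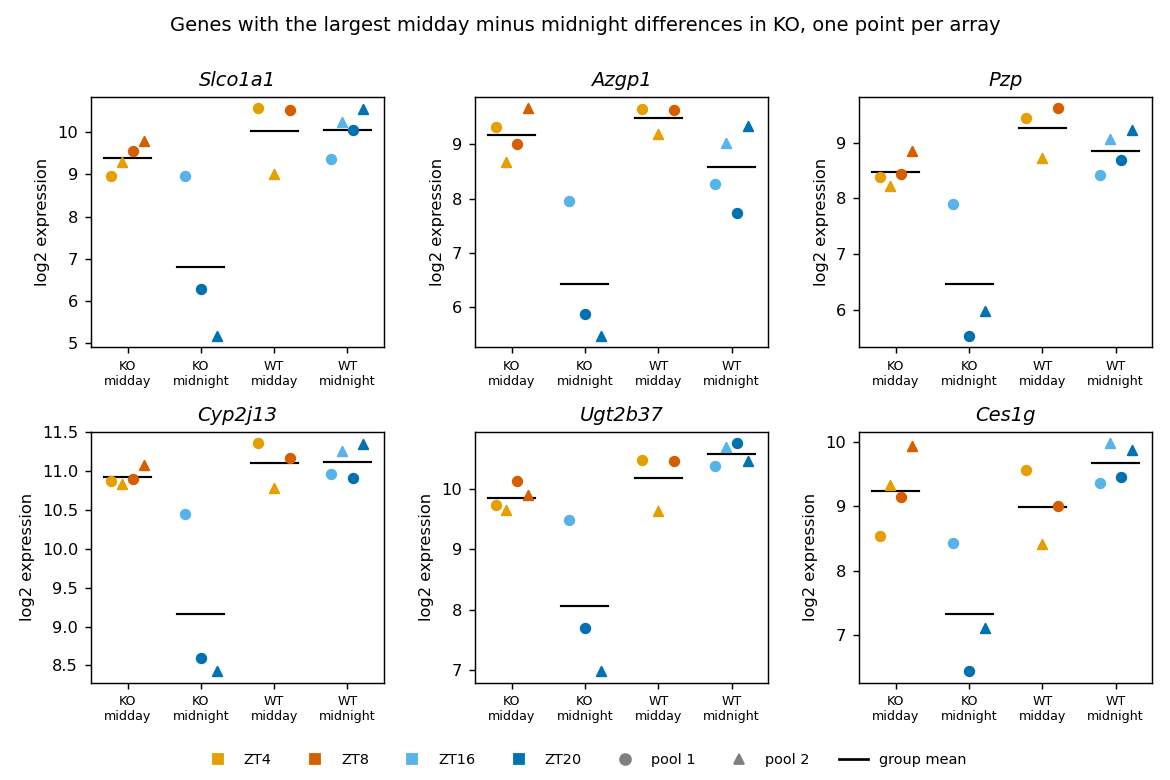
Log2 expression in each array of the 6 genes with the largest knockout midday minus midnight differences among genes called, knockout windows left of wild-type windows. Colour gives the ZT, the bar the mean; in each gene the ZT20 pools of the knockout are lowest, as in Slco1a1 with 6.30 and 5.18, and the ZT16 pool is closer to the midday arrays.

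Fcamr, a receptor for the constant part of IgA and IgM, rose by 1.12 ± 0.19 log2 (adjusted p = 0.0084), with 8.05 to 8.31 log2 at midday, against 7.71, 6.74 and 6.68 log2 at midnight. Mogat1, an enzyme of triglyceride synthesis, rose by 1.11 ± 0.18 log2 (adjusted p = 0.00544), with 9.72 to 9.90 log2 at midday, against 9.40, 8.46 and 8.37 log2 at midnight. In both the ZT16 pool lay between the midday arrays and the ZT20 pools. Anxa13, an annexin of epithelia, and Apoh, a phospholipid-binding plasma protein, rose by 1.09 ± 0.21 and 1.09 ± 0.25 log2 (adjusted p = 0.0163 and 0.0316). Of a list of 16 genes known to differ between male and female mouse kidney, 5 rose (background 1.09% higher) and none fell, namely Azgp1, Slco1a1, Pzp, Cyp2j13 and Cyp2e1. The list's median was 0.74 log2 with the ZT20 pools and 0.17 log2 without them, and then none was called. Its mean level was 9.66 to 10.05 log2 at midday, against 9.65 log2 at ZT16 and 8.57 and 8.19 log2 at ZT20. The sex chromosome list had 0 of 3 members called by limma and 0 at an unadjusted p under 0.05. Wild type had none of the 16 called, with a median of 0.10 log2.

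Other gene groups moved with the ZT20 pools. The 13 proliferation genes had a mean level of 6.08 to 6.16 log2 at midday, against 5.99 log2 at ZT16 and 6.24 and 7.24 log2 at ZT20, so ZT20 pool 2 alone was high. In that array Top2a, a topoisomerase of dividing cells, was at 7.61 log2, against 5.17 to 5.90 log2 in the other 6. The 12 stromal and matrix genes had 8.54 to 8.82 log2 at midday, against 8.67 log2 at ZT16 and 9.06 and 9.39 log2 at ZT20. None of the genes of either list was called by limma (1 proliferation and 6 stromal genes had an unadjusted p under 0.05). All had negative differences with the ZT20 pools (11 of the 12 stromal genes when array medians were subtracted), and without them 8 proliferation and 5 stromal genes were positive. The 11 proximal tubule markers were at 12.20 to 12.28 log2 at midday, against 12.23 log2 at ZT16 and 12.12 and 12.14 log2 at ZT20. The part of these shifts in the results above was not tested. In whole tissue, fewer cells of a type and less RNA per cell cannot be told apart.

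Transporters of organic ions and drugs had 4 of 16 members higher (background 1.09%) and none lower (background 0.401%). Slc22a19, an organic anion transporter outside this list that is given below, was called lower, with a difference of -0.61 log2. Beside Slco1a1, Slco1a6 of the same family rose by 0.62 ± 0.11 log2 (adjusted p = 0.00963), with 10.38 to 10.56 log2 at midday, against 10.13, 9.76 and 9.59 log2 at midnight. Slc22a6 (Oat1), the basolateral carrier of organic anions in the proximal tubule, rose by 0.47 ± 0.10 log2 (adjusted p = 0.022), with 11.34 to 11.47 log2 at midday, against 11.21, 10.65 and 10.92 log2 at midnight. Abcb1a, the efflux pump P-glycoprotein, had 7.28, 7.43, 7.50 and 7.52 log2 at midday, against 6.78, 7.08 and 6.98 log2 at midnight. Here the ZT16 pool was the lowest array. Abcb1a rose by 0.49 ± 0.12 log2 (adjusted p = 0.0452), and without the ZT20 pools the difference was 0.65 log2 (adjusted p = 0.265). Among the eicosanoid enzymes, Cyp2j9 rose with Cyp2j13, 2 of 12 members (background 1.09% higher), by 0.59 ± 0.11 log2 (adjusted p = 0.0172). It had 7.81 to 7.96 log2 at midday, against 7.22, 7.39 and 7.21 log2 at midnight, so its ZT16 pool was as low as the ZT20 pools.

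Of 15 genes of fatty acid oxidation and the PPAR factors, 3 rose (background 1.09%) and 1 fell (background 0.401%). Ppard, a nuclear receptor for fatty acids, had 7.56, 7.22, 7.23 and 7.17 log2 at midday, against 8.16, 8.10 and 8.35 log2 at midnight. The windows were well apart, and ZT4 pool 1 was the highest of the midday arrays. Ppard fell by 0.91 ± 0.18 log2 (adjusted p = 0.0194), and without the ZT20 pools it differed by -0.86 log2 (adjusted p = 0.419). Cpt1a, which admits fatty acids to mitochondria, had 11.02, 11.20, 11.17 and 11.32 log2 at midday, against 10.80, 10.72 and 10.83 log2 at midnight. It rose by 0.39 ± 0.08 log2 (adjusted p = 0.0232), with 0.35 log2 in wild type (adjusted p = 0.0277). Angptl4, a secreted inhibitor of lipoprotein lipase, rose by 0.82 ± 0.19 log2 (adjusted p = 0.0316), with 7.82 to 7.89 log2 at midday, against 7.25, 7.07 and 6.77 log2 at midnight. Plin2, which coats lipid droplets, rose by 0.32 ± 0.07 log2 (adjusted p = 0.0232). Fat cell markers were uneven across the same arrays: none of 5 was called (3 at an unadjusted p under 0.05), but their mean level was 7.70 log2 in ZT8 pool 1, 6.32 to 6.83 log2 in the other midday arrays and 6.27 to 6.66 log2 at midnight. Their part in the lipid genes was not tested. Without the ZT20 pools no member of the organic ion, eicosanoid or fatty acid lists was called, although Cyp2j9 then differed by 0.65 log2 and Cpt1a by 0.38 log2. Without ZT8 pool 2 only Slco1a6 was called (adjusted p = 0.0464).

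Single members were called in other transport lists, against a background of 1.09% higher and 0.401% lower. Slc9a2, a sodium-proton exchanger, rose by 0.42 ± 0.10 log2 (adjusted p = 0.0371), 1 of 11 sodium transport genes, with 8.64 to 8.71 log2 at midday, against 8.47, 8.19 and 8.10 log2 at midnight. Slc14a2, the urea transporter of the inner medulla, fell by 0.45 ± 0.10 log2 (adjusted p = 0.0267), 1 of 15 water and urea genes, with 7.47 to 7.64 log2 at midday, against 7.78, 8.07 and 8.11 log2 at midnight. The windows did not overlap in either gene. Slc4a1, the anion exchanger of intercalated cells and red cells, fell by 0.32 ± 0.07 log2 (adjusted p = 0.0269). It had 8.09, 8.30, 8.10 and 8.07 log2 at midday, against 8.39, 8.49 and 8.49 log2 at midnight. Alas2, which makes heme in red cell precursors, rose by 1.01 ± 0.21 log2 (adjusted p = 0.0205), with 7.54, 7.47, 7.0 and 7.23 log2 at midday, against 5.82, 6.57 and 6.50 log2 at midnight. These genes thus went in opposite directions. Cirbp, an RNA-binding protein induced by cold, had 9.09, 9.04, 8.84 and 8.93 log2 at midday, against 8.41, 8.48 and 8.36 log2 at midnight. Its windows were apart, and Cirbp rose by 0.56 ± 0.14 log2 (adjusted p = 0.0453), with 0.89 log2 in wild type (adjusted p = 0.00247) and 0.57 log2 in the knockout without the ZT20 pools (adjusted p = 0.515).

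Cyp2e1, a P450 that oxidises small molecules, rose by 1.0 ± 0.23 log2 (adjusted p = 0.0353), with 12.30 to 12.64 log2 at midday, against 12.22, 11.46 and 10.71 log2 at midnight. Apob, which carries lipoproteins and was the 1 of 5 liver markers called (background 1.09% higher), rose by 0.95 ± 0.21 log2 (adjusted p = 0.0301), with 10.32 to 10.59 log2 at midday, against 10.24, 9.23 and 8.98 log2 at midnight. In both the ZT16 pool was just below the midday arrays. The mean level of the liver markers was 7.71 to 7.84 log2 at midday, against 7.62, 7.24 and 7.37 log2 at midnight.

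**Figure D4:**
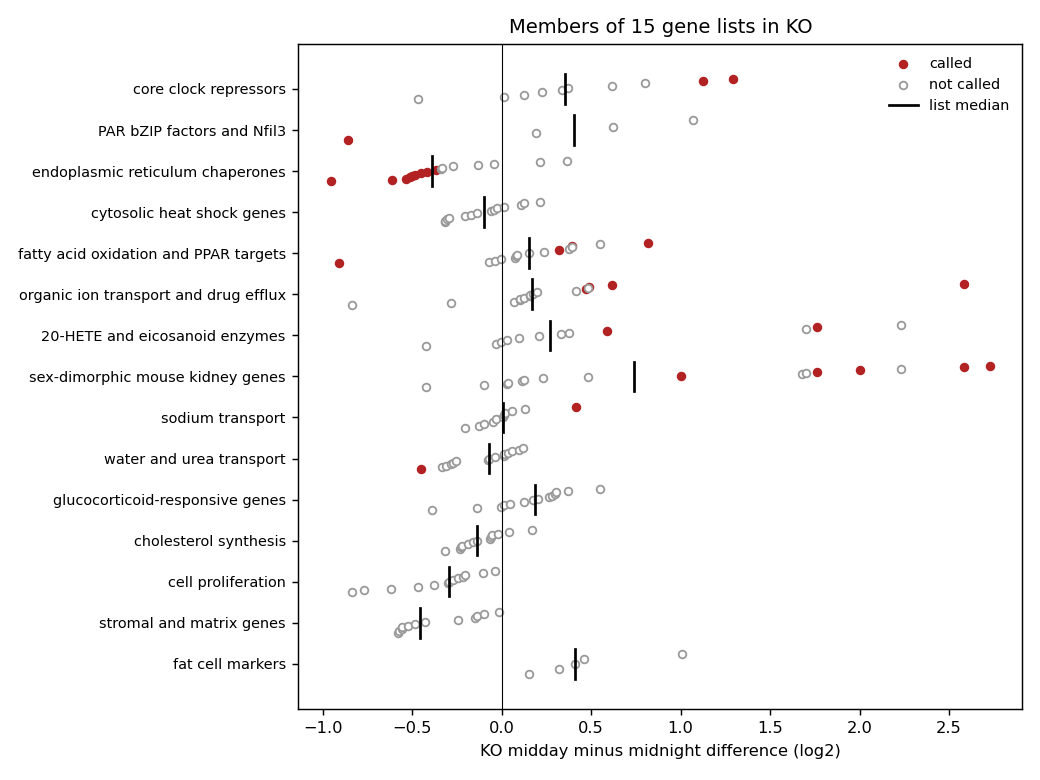
Knockout midday minus midnight difference in log2 for each member of 15 gene lists, 1 point per gene. Filled points are genes called; the chaperones lie mostly below 0 (median -0.39) and the genes that differ between the sexes mostly above it (median 0.74).

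Beside Sdf2l1, Ppard, Nfil3 and Hyou1, the 12 largest falls among genes called without overlap were 8 further genes. Elovl2, which lengthens polyunsaturated fatty acids, had 8.21, 8.53, 8.18 and 8.18 log2 at midday, against 8.95, 9.01 and 9.24 log2 at midnight. It fell by 0.79 ± 0.15 log2 (adjusted p = 0.0176), and ZT4 pool 2 was its highest midday array. Scd2, a desaturase, had 9.47 to 9.63 log2 at midday, against 10.20, 10.16 and 10.33 log2 at midnight, and fell by 0.66 ± 0.13 log2 (adjusted p = 0.0171). In both lipid enzymes the ZT16 pool was with the ZT20 pools. Itga6, an integrin subunit that binds laminin, fell by 0.74 ± 0.17 log2 (adjusted p = 0.0317), with 9.51 to 9.85 log2 at midday, against 10.34, 10.29 and 10.45 log2 at midnight. Npnt (nephronectin), a matrix ligand of integrins, fell by 0.61 ± 0.14 log2 (adjusted p = 0.0329), and Cdh6, a cadherin of renal epithelium, by 0.67 ± 0.15 log2 (adjusted p = 0.0328). Loxl4, which crosslinks matrix proteins, fell by 0.74 ± 0.16 log2 (adjusted p = 0.0295), and its other probe set differed by -1.30 log2. Ifit1, an interferon-induced gene, fell by 0.77 ± 0.18 log2 (adjusted p = 0.0379), with 6.08 to 6.43 log2 at midday, against 6.86, 7.37 and 6.61 log2 at midnight. Slc22a19, an organic anion transporter, fell by 0.61 ± 0.13 log2 (adjusted p = 0.0237). In wild type none of these 8 genes was called, with differences of -0.40 to 0.09 log2.

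The calls were repeated 7 times, each time without one of the 7 arrays, and 17 genes were called every time, 12 higher and 5 lower at midday. These genes were picked by that criterion after their values were seen. The 5 lower ones were the chaperones Sdf2l1, Hyou1, Hsp90b1, Dnajb11 and Pdia6. Olfm4, a secreted glycoprotein of epithelia and neutrophils, had 8.01, 8.13, 8.08 and 8.27 log2 at midday, against 7.33 log2 at ZT16 and 6.87 and 7.09 log2 at ZT20. The windows were well apart, and Olfm4 rose by 1.03 ± 0.10 log2 (adjusted p = 9.56e-05, the smallest of all genes). Olfm4 differed by 0.79 log2 without the ZT20 pools and was still called (adjusted p = 0.0452). Its wild-type difference was 0.32 log2 (adjusted p = 0.0953).

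Herc3, a ubiquitin ligase, had 9.06, 9.19, 9.03 and 9.36 log2 at midday, against 8.23, 8.40 and 8.47 log2 at midnight. It rose by 0.79 ± 0.13 log2 (adjusted p = 0.0057), and in wild type by 0.93 log2 (adjusted p = 0.00122). Bcat1, the cytosolic aminotransferase of branched-chain amino acids, rose by 0.60 ± 0.09 log2 (adjusted p = 0.00443) and had 8.94 to 9.13 log2 at midday, against 8.43, 8.50 and 8.35 log2 at midnight. Its wild-type difference was 0.73 log2 (adjusted p = 0.000378). In Herc3 and Bcat1 the ZT16 pool was as low as the ZT20 pools. Accs, related to aminocyclopropane carboxylate synthases, rose by 0.46 ± 0.07 log2 (adjusted p = 0.00443), with 6.61 to 6.73 log2 at midday, against 6.22 log2 in each midnight array. Tcea3, a transcript elongation factor, rose by 0.35 ± 0.05 log2 (adjusted p = 0.00443), with 8.94 to 9.0 log2 at midday and 8.61 to 8.64 log2 at midnight. The arrays of each window varied little in Tcea3.

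Ces2g and Ces1e, carboxylesterases that hydrolyse esters and drugs, rose by 0.58 ± 0.08 and 0.44 ± 0.07 log2 (adjusted p = 0.00443 and 0.00491). Ces1e had 10.20, 10.26, 10.40 and 10.38 log2 at midday, against 9.94, 9.71 and 9.95 log2 at midnight, and differed by -0.06 log2 in wild type. Nap1l5 rose by 0.64 ± 0.09 log2, Osbp2, an oxysterol-binding protein, by 0.71 ± 0.11 log2, and Mettl27, a methyltransferase-like protein, by 0.46 ± 0.07 log2. Sdc2, a heparan sulfate proteoglycan of the cell surface, rose by 0.55 ± 0.09 log2 (adjusted p = 0.00491). Nat8, an acetyltransferase of kidney that acts on cysteine conjugates, and Krt10, a keratin, lost their call without 4 of the 7 arrays each. With all 7 they rose by 0.91 ± 0.18 and 0.50 ± 0.10 log2 (adjusted p = 0.0171 and 0.0205), with wild-type differences of -0.44 and -0.21 log2.

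Without the ZT20 pools, the 7 genes called were Hyou1, Hspa5 and Olfm4, given above, and 4 others that were picked by this result. Stra6, a receptor for the retinol carrier, differed by -0.57 log2 there, and had 6.87 to 6.97 log2 at midday, against 7.49 log2 at ZT16 and 7.51 and 6.98 log2 at ZT20. With the ZT20 pools it fell by 0.40 log2 (adjusted p = 0.0463). Abcd4, a transporter that takes part in vitamin B12 handling, had 8.38 to 8.46 log2 at midday, against 7.89 log2 at ZT16 and 8.30 and 8.24 log2 at ZT20. Ell3, an elongation factor, had 6.75 to 7.0 log2 at midday, against 6.01 log2 at ZT16 and 6.85 and 6.61 log2 at ZT20. The transcript 1110051M20Rik had 7.85 to 7.96 log2 at midday, against 7.34 log2 at ZT16 and 7.78 and 7.71 log2 at ZT20. In these last 3 genes the ZT16 pool was low and the ZT20 pools were near the midday arrays, and none was called with all 7 arrays. The single ZT16 pool has no replicate, and its spread was taken from the other groups.

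Most other lists had no member called by limma in the knockout. None of 14 glucocorticoid-responsive genes was called (6 at an unadjusted p under 0.05), nor any of 12 immediate early genes (1), 13 regulators of distal sodium transport (1) or 6 genes of the renin-angiotensin system (0). The kinase Sgk1, which belongs to the corticoid and sodium lists, had 8.32, 8.51, 8.75 and 8.59 log2 at midday, against 8.78, 8.92 and 9.10 log2 at midnight. Its windows lay side by side without overlap, with a difference of -0.39 ± 0.13 log2 (adjusted p = 0.147) in the knockout and -0.75 log2 (adjusted p = 0.00448) in wild type. None of 14 genes of glucose and lactate handling (2), 13 of cholesterol synthesis (5) or 16 of amino acid transport and catabolism (6) was called. Aqp2, the water channel of principal cells that vasopressin regulates, had 10.17 to 10.48 log2 at midday and 10.53 to 10.67 log2 at midnight, a difference of -0.28 ± 0.09 log2 (adjusted p = 0.114). The markers of thick ascending limb, distal convoluted tubule, principal cells, podocytes, endothelium, immune cells and adrenal gland also had none called, with 0 to 2 members each at an unadjusted p under 0.05.

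The same windows were set against wild type, whose arrays are other samples. Wild-type kidneys had 396 genes called (2.84%), of which 323 (2.31%) were higher and 73 (0.523%) lower at midday. Of the 208 genes called in the knockout, 183 (88.0%) had the same sign in wild type, as did 60.5% of all genes tested. That was 133 of 152 higher and 50 of 56 lower genes. Both genotypes called 49 genes, which are 23.6% of the knockout list and 12.4% of the wild-type list. The genes that rose in the knockout had a median of 0.46 log2 there and 0.23 log2 in wild type, and those that fell had -0.43 log2 in the knockout and -0.15 log2 in wild type. The knockout medians are those of genes chosen by that contrast, so the smaller wild-type medians are no test of a difference.

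**Figure D5:**
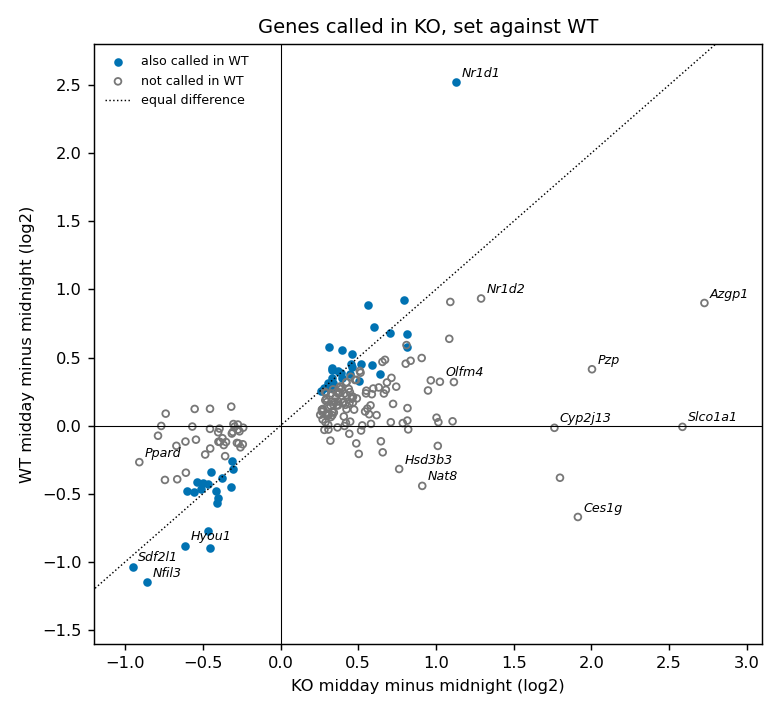
Midday minus midnight difference in log2 of the 208 genes called in the knockout, knockout on the x axis and wild type on the y axis, 1 point per gene. Of these genes 183 have the same sign in both genotypes, and Azgp1 and Slco1a1, farthest to the right, lie at 0.90 and -0.01 log2 in wild type.

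The difference between the genotypes was tested itself, as the knockout difference minus the wild-type difference. It was called in 3 genes (0.0215%), and 1334 (9.55%) had an unadjusted p under 0.05. Cry1, a repressor of the Clock dimer, had 7.02, 7.29, 7.62 and 7.09 log2 in knockout midday arrays, against 7.89, 7.61 and 7.67 log2 in knockout midnight arrays. The ranges touched in the knockout, whereas in wild type Cry1 had 5.45, 6.09 and 5.92 log2 at midday, against 7.51, 7.65, 7.47 and 7.51 log2 at midnight. The differences of -0.47 and -1.72 log2 were 1.25 ± 0.19 log2 apart (adjusted p = 0.036). Hsd3b3, a steroid dehydrogenase of kidney and liver, had 9.0, 9.08, 9.15 and 9.28 log2 in knockout midday arrays, against 8.62, 8.51 and 7.96 log2 in knockout midnight arrays. In wild type it had 8.95, 8.91 and 9.0 log2 at midday, against 9.24, 9.52, 9.15 and 9.17 log2 at midnight, so the windows were in the opposite order. Hsd3b3 rose by 0.76 ± 0.12 log2 in the knockout (adjusted p = 0.00491), and the test of the difference gave 1.08 ± 0.17 log2 (adjusted p = 0.0393). Fhod3, an actin-organising formin picked for this result, differed by -0.03 log2 in the knockout and 0.53 log2 in wild type, which were -0.56 ± 0.09 log2 apart (adjusted p = 0.0393). The count of such genes ranged from 0 to 51 when single knockout arrays were left out, with 51 when the ZT16 pool was out and 0 without ZT4 pool 2 or without either ZT20 pool.

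The knockout arrays at ZT0 and ZT12 were not part of the comparison and show when the called genes were highest. Of the 152 genes higher at midday, the highest knockout mean of the 6 times was at ZT8 in 83, at ZT12 in 36 and at ZT4 in 33. Of the 56 lower genes, it was at ZT20 in 34 and at ZT16 in 22. The genes were chosen by midday against midnight, so a highest time outside the opposite window follows largely from that choice. These counts are a description. The ZT12 mean was above the ZT0 mean in 133 of the 152 and in 17 of the 56, against 49.1% of all genes. The ZT12 pool 2 array, like ZT8 pool 2, was far above the other knockout arrays in Ugt2b38, with 10.90 log2, against 7.79 log2 in ZT12 pool 1. The pools gave different counts for this: pool 1 arrays alone put ZT12 above ZT0 in 128 of the 152 and 9 of the 56, and pool 2 arrays alone in 113 and 22. At ZT0 pool 1 resembled the ZT20 pools in the proliferation list, with a mean level of 6.95 log2, against 6.07 log2 in ZT0 pool 2.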

How the data were processed

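RNA of 22 pools of mouse kidney was measured on arrays. The authors deposited log2 expression values per probe set, which per the submitters' processing notes came from RMA. That method equalises the distribution of probe values between arrays before probes are combined into probe sets. It can therefore hide a change shared by most genes and shrink differences of dim probe sets. The software version and the genome build are not stated there. The number of arrays limits the precision.

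Of 35556 probe sets, 21789 had 1 gene symbol in the platform annotation, 1621 had several and 12146 were not listed and stay unnamed. Among those with 1 symbol, 21698 matched the RefSeq table of GRCm38.p6. Probe sets whose mean over the arrays lay under the 30th percentile (5.21 log2) were dropped, and the brightest stood for each gene, leaving 13967 genes. Groups came from the sample titles. limma 3.58.1 in R 4.3.3 was fitted to all 22 arrays with 8 means (genotype by midday, midnight, dawn and dusk) and 14 residual degrees of freedom, and the script was tested on simulated data. A gene was called when its p, adjusted by Benjamini-Hochberg, was under 0.05.

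The genes compared, the 35 gene lists and the tests were chosen with earlier results of these data known. Named genes are Clock, the 12 largest rises and the 12 largest falls called without overlap of the windows, 6 genes with the smallest p between genotypes among those called in the knockout, as a description, all members of the core clock and PAR bZIP lists, and per other list up to 6 members called or, with none called, the 2 with the largest difference. Alternatives were other filters and scalings, single arrays or ZT20 pools left out, the pool number as a replicate block, each pool number alone, other models of time and of the spread, and the knockout arrays alone.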

Additional observations from a re-analysis of the deposited data

Results flagged for a closer look

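In 9 genes, 1 of the 4 knockout midday arrays lay far from the other 3, by the gap to its nearest neighbour as a share of the range. Chance marks about 1 in 20 groups in this way. The ZT4 pool 1 array was apart in Ppard (share 0.85, 7.56 log2 against 7.17 to 7.23), Chordc1 (0.84) and Eif2s3y (0.834). The ZT4 pool 2 array was apart in Elovl2 (0.918, 8.53 log2 against 8.18 to 8.21), Ifit1 (0.889), Mogat1 (0.927), Slc4a1 (0.873) and Th (0.916). The ZT8 pool 2 array was apart in Ciart (0.937, 7.03 log2 against 5.20 to 5.32).

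The midday minus midnight difference was not the same in both genotypes, by the test of the difference itself, in Cry1 (1.25 log2, adjusted p = 0.036), Hsd3b3 (1.08 log2, adjusted p = 0.0393) and Fhod3 (-0.563 log2, adjusted p = 0.0393).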

How the results depend on the processing

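The 208 genes called in the knockout numbered 183 to 298 under the 50th percentile filter, array medians subtracted, repeated quantile normalization, a trended robust spread, the replicate block and every probe set tested alone. They numbered 132 without a filter, 138 with 12 genotype-by-time means, 492 with array weights, 108 with the 7 knockout arrays or with all 11 knockout arrays alone, 83 with pool 2 alone, 0 with pool 1 alone, 85 at a size of at least 0.5 log2, and 7 without the knockout ZT20 pools. Without the ZT20 pools of both genotypes, an alternative chosen after seeing the data, 1 gene was called. Leaving out each array gave 20 to 271 genes, the lowest without ZT20 pool 2 and the highest without the ZT16 pool. The 3 genes that differed between genotypes numbered 1 without a filter or with medians subtracted, 39 with pool 2 alone, and 0 with pool 1 alone, with 12 means, or without the knockout ZT20 pools or those of both genotypes, and 0 to 51 with single arrays left out. List members called, 32 in all, numbered 2 without the knockout ZT20 pools, 1 without those of both genotypes, 0 with pool 1 alone, 18 with pool 2 alone, 53 with array weights, 21 with the 7 or 11 knockout arrays alone, and 5 to 39 with single arrays left out. The cause of these changes was not tested.

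Of 100 named genes, none changed direction while called under any alternative run. The knockout arrays alone give no test between genotypes, and named genes dimmer than the 50th percentile had no value under that filter. The pool number as a replicate block gave 232 genes called, and 2 named genes lost their call, Cirbp (adjusted p = 0.0532) and Rhobtb1 (adjusted p = 0.0506). Deviations of the pool numbers correlated by -0.41 to 0.55 across times, over 0.1 in 25 of 45 comparisons, so the numbers were not taken as a paired design. In all 20 arrays of groups with 2 pools the best correlation was with an array of the same number, which is a hint from the data and not from the design.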
